A study of Mus musculus with 72 samples.

Results

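Gene expression in the heart was compared between mice that ate Q10, the oxidised form of coenzyme Q10, and mice on the control diet after 14 months. The comparison held 6 arrays, 3 of each diet, of the 18 heart arrays and 72 arrays of the series, and its members were taken by the tissue, diet and duration in the labels. All animals were female SAMP1 mice, a strain prone to accelerated senescence, and started at 4 weeks of age on Q10 or QH2 (the reduced form) at 500 mg per kg of body weight a day, or on the control diet. They were killed after 6 or 14 months, at an age of 7 or 15 months. The label for age holds the duration. Mice were kept 3 to 6 per cage in a specific pathogen free room, and whether a cage held mice of 1 diet is not given, so the part of the cage was not tested. The series text gives 3 mice for each group, so the arrays of a group were taken as 3 animals.

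Coenzyme Q10, or ubiquinone, carries electrons in the inner mitochondrial membrane from complexes I and II and several other dehydrogenases to complex III, and in its reduced form it is a lipid-soluble antioxidant. The heart, with its dense mitochondria, makes its own ubiquinone through the enzymes encoded by the Coq genes. Interferons, the signals cells send on infection or immune activation, switch on antiviral proteins, guanylate-binding proteins, and the machinery that cuts proteins into peptides and shows them on MHC class I molecules at the cell surface. MHC class II molecules show peptides taken up from outside and are made mainly by B cells, macrophages and dendritic cells.

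Values are quantile-normalised signals on a linear scale, and differences are log2(signal + 1) in Q10 minus control with limma's standard error from the 6 heart groups (3 arrays each). Heart muscle markers bore out the tissue label. Myh6, the main myosin heavy chain of the adult mouse heart, read 14017, 14745 and 14418 in the controls and 14745, 14745 and 14418 on Q10. The summed signal of 9 cardiomyocyte markers ran from 107343 to 108614 in controls against 106617 to 107545 on Q10. Quantile normalisation evens the brightest probe sets between arrays, and with scaling by the median these markers stood at -0.31 on Q10. The atrial markers Myl7 and Myl4 stayed under 61 on all 6 arrays. The arrays as deposited differed in brightness, with a mean signal of 150.8 to 226 in controls against 211 to 281 on Q10 and a median of 12.8 to 18.9 against 18.6 to 25.1. The 3' to 5' signal ratio of Actb, a measure of RNA integrity and labelling, ran from 1.81 to 2.18 in controls and from 1.78 to 2.20 on Q10, so the groups overlapped.

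The Q10 arrays 2 and 3 stood apart. They correlated with each other at 0.967 over the probe sets tested, against 0.952 and 0.953 with Q10 array 1, while the control arrays correlated among themselves at 0.954 to 0.960. The summed signal of 4 B cell markers was 82.6 to 109 in the controls, 127.9 in Q10 array 1, 1834 in array 2 and 5842 in array 3. Results are therefore given with all 3 Q10 arrays and, for the genes and lists named below where the difference is large, with array 1 alone, which has no spread of its own and was assumed to vary as the other groups did.

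Of 27022 probe sets tested, 0 were called at an adjusted p under 0.05 (0%), and the smallest adjusted p was 0.0774. At an unadjusted p under 0.05, 2603 probe sets stood out (9.63%), 1303 higher (4.82%) and 1300 lower (4.81%) on Q10. By chance 1351 of 27022 would fall under that level, both sides together, in this and each later comparison. The 76 probe sets under an adjusted p of 0.10 were 63 higher and 13 lower. The count turned on Q10 array 1: without it 540 were called (2%), 406 higher and 134 lower. Without array 2 or without array 3 the count was 0. Without control array 1 it was 1, a probe set of Mthfd2, named here only because it is the sole call of that fit. With arrays 2 and 3 both left out it was 1 as well, a probe set of Yy1 that lay lower, and at an unadjusted p under 0.05 the count was then 973. With weights estimated per array 580 were called, and in the values as deposited, where the median of all probe sets lay 0.40 higher on Q10 against -0.02 after normalisation, 458 were called, all higher. Per gene, by the brightest probe set, the 3 Q10 and 3 control signals did not overlap for 1076 of 13366 genes with Q10 higher (8.05%) and 1271 with Q10 lower (9.51%).

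The 12 genes with the smallest p on the higher side included genes of interferon signalling, antigen presentation and leukocytes. Gbp2, an interferon-induced GTPase that attacks pathogen vacuoles, read 238, 201 and 198 in the controls and 441, 967 and 1124 in Q10 arrays 1, 2 and 3, a difference of 1.88 ± 0.34 (adjusted p = 0.0865). Gbp7 of the same family read 78, 83.6 and 71.6 against 246, 458 and 386, 2.17 ± 0.38 (adjusted p = 0.0774). In these genes each Q10 heart lay above each control, array 1 the least. Psmb8, a catalytic subunit of the immunoproteasome, read 119.8, 136 and 132 against 224, 560.0 and 482, 1.60 ± 0.31 (adjusted p = 0.0935). Psmb9, another such subunit, read 91.7, 92 and 111 against 179, 482 and 378, 1.70 ± 0.34 (adjusted p = 0.0935). H2-K1, an MHC class I heavy chain, read 154, 106 and 120.4 against 273, 519 and 418, 1.63 ± 0.28 (adjusted p = 0.0774). Its 4 probe sets ran from 0.73 to 1.63. In Psmb8, Psmb9 and this probe set of H2-K1 too the groups did not overlap.

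**Figure D1:**
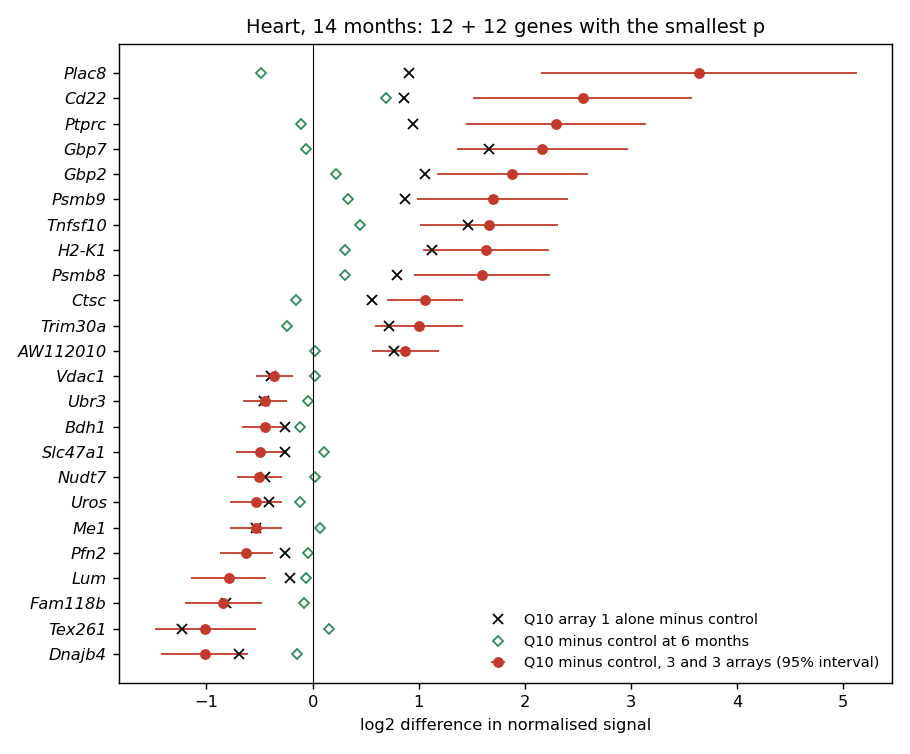
Log2 difference in signal (horizontal axis) for the 12 genes with the smallest p on each side; red points and bars are Q10 minus control with all 6 arrays and the 95% interval, crosses are Q10 array 1 alone against the 3 controls, and diamonds are Q10 minus control at 6 months. The groups do not overlap for any of the 24 genes, so the crosses must lie on the same side of 0 as the red points. None of the 24 was called, and the diamonds run from -0.48 to 0.70.

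Ptprc, which encodes the CD45 phosphatase carried by nearly all leukocytes, read 59.4, 48.2 and 58 in the controls and 107, 371 and 517 on Q10, 2.29 ± 0.41 (adjusted p = 0.0774). Plac8, a cysteine-rich protein abundant in leukocytes, had the largest difference of the 24 genes, 22.5, 28.2 and 15.8 against 42.1, 581 and 902, 3.64 ± 0.71 (adjusted p = 0.0935). Cd22, an inhibitory receptor of B cells, read 18, 14.9 and 17.4 against 31.9, 161 and 208, 2.55 ± 0.49 (adjusted p = 0.0935). For these 3 genes Q10 array 1 lay above the controls by 0.86 to 0.95 on the log2 scale and arrays 2 and 3 further above. Ctsc, a lysosomal protease that activates the granule proteases of leukocytes, was at 1.06 ± 0.17 by the probe set with the smallest p, while its 3 probe sets ran from 0.03 to 1.06. The death ligand Tnfsf10 was at 1.67 ± 0.31, the interferon-induced Trim30a at 1.00 ± 0.20 and AW112010 at 0.87 ± 0.15. AW112010 was even across the Q10 hearts, 615, 745 and 639.6, against 377, 366 and 343 in the controls. All 12 were called without Q10 array 1. The groups did not overlap in any of the 12, so leaving out 1 array could hardly turn their direction, which held. With array 1 alone they lay between 0.56 (Ctsc) and 1.66 (Gbp7), above 0 in each because array 1 lay above every control.

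Promoter sequence was looked up for the interferon list, since its members lay higher together. The interferon-stimulated element was searched as GAAA, any 2 bases and GAAA on either strand in the RefSeq windows of 300 bases (250 before and 50 after the start, GRCm38.p6). It was found in 11 of the 21 listed and tested genes that matched a window (52.4%), against 1079 of 27025 genes with a window (3.99%), and in 1 of 8 MHC class I genes (12.5%). The stretches upstream of the start are shown for 5 of the genes described here, with 1 match each in capitals, read 5′ to 3′ on the strand of the gene. Irgm1 and Ifit1 hold 2 matches upstream of the start, of which the one not in capitals overlaps it in Irgm1 and lies before it in Ifit1. TTTC at both ends is the element on the opposite strand.
Gbp2, chr3:142620564-142620653, plus strand: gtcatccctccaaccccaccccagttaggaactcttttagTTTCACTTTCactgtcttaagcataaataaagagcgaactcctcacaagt
Rsad2, chr12:26456523-26456612, minus strand: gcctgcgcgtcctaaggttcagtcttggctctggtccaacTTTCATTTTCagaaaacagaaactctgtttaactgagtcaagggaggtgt
Irgm1, chr11:48871421-48871484, minus strand: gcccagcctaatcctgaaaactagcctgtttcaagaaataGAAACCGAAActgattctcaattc
Igtp, chr11:58199482-58199555, plus strand: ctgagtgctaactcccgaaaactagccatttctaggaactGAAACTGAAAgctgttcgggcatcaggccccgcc
Ifit1, chr19:34640764-34640853, plus strand: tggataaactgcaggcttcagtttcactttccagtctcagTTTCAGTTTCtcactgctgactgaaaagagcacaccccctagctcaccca
The match in capitals began 59 bases before the start in Gbp2, 120 in Rsad2, 24 in Irgm1, 34 in Igtp and 85 in Ifit1. A match is a description of the letters, and binding was not measured.

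As a list, the interferon response genes all lay higher on Q10: 29 of 29 tested (33 listed) had a difference above 0, against 46.8% of all genes. The list median was 0.83 against -0.02 over all probe sets. In 26 genes the groups did not overlap, against 8.05% of all genes with Q10 higher. None was called with all arrays, and 12 were called higher without Q10 array 1, where 1.89% of all genes were called higher and 0.661% lower. Rsad2, the antiviral enzyme viperin, read 323, 180.0 and 162 in the controls and 506, 697 and 1239.6 on Q10, 1.84 ± 0.39 (adjusted p = 0.0939). Iigp1, an immunity-related GTPase, read 256, 251 and 188 against 662, 1400.1 and 1313, 2.22 ± 0.52 (adjusted p = 0.111). Igtp and Irgm1 of the same GTPase family were at 1.64 ± 0.38 and 1.11 ± 0.25. In all 4 the 2 groups were apart, with the lowest Q10 value in array 1. The RNA sensors and helpers of the antiviral state lay less far from the controls: Ifit1 read 44.3, 56.2 and 54.9 against 64.4, 79.9 and 133, 0.76 ± 0.38 (adjusted p = 0.549), Ifit3 was at 0.65 ± 0.26, Oas1a at 0.62 ± 0.23 and Bst2, which tethers virus particles, at 0.55 ± 0.22. The median of the list over each array, set against the control mean, was 0.56, 0.88 and 1.04 in Q10 arrays 1 to 3, so each Q10 array lay above the controls. With array 1 alone 27 of the 29 lay above 0, and the median was 0.56.

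**Figure D2:**
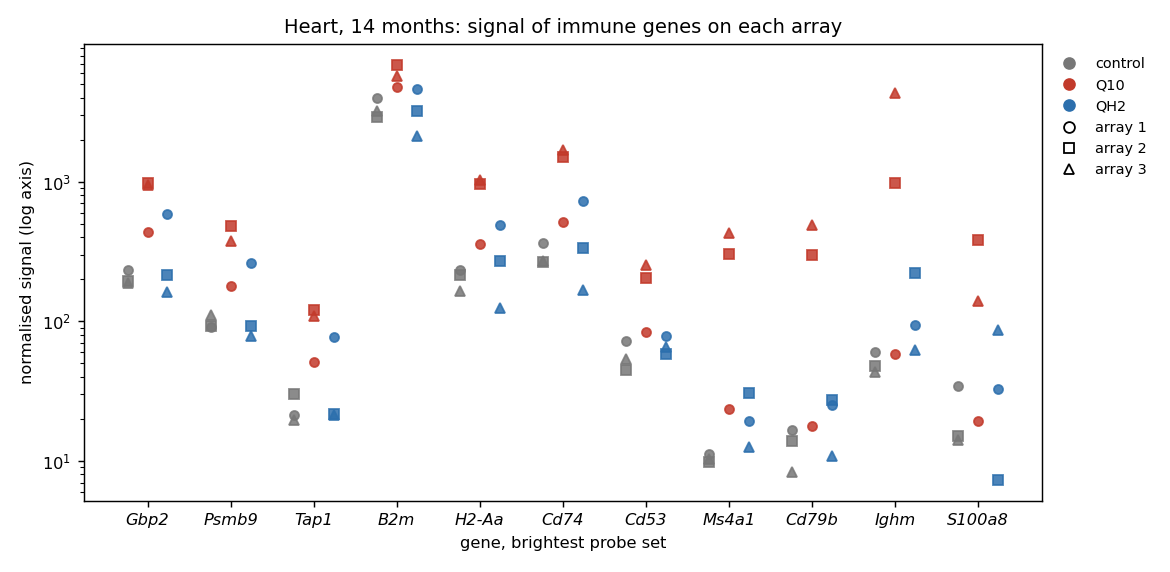
Normalised signal (log axis) of 11 genes on the 9 heart arrays of 14 months, by diet (colour) and array number (marker shape). Q10 arrays 2 and 3 lie above all controls for each of these genes; Q10 array 1 lies above all controls for Gbp2, Psmb9 and Tap1 and within the control range for Ighm.

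Genes of the MHC class I pathway lay higher as well, 10 of 10 tested with a median of 1.38. The groups were apart in 9, against 8.05% of all genes with Q10 higher. Without Q10 array 1, 6 were called, against 1.89% of all genes called higher. Tap1, part of the pump that carries peptides to class I molecules, read 21.2, 30.3 and 19.7 in the controls and 51.5, 121 and 109 on Q10, 1.87 ± 0.48 (adjusted p = 0.156). B2m, the light chain of class I, read 4004, 2886 and 3214 against 4735, 6876 and 5678, 0.77 ± 0.22 (adjusted p = 0.191). Its partner genes Tap2 and Tapbp were at 0.75 ± 0.21 and 0.49 ± 0.16, and Nlrc5, the transcriptional activator of class I genes, at 1.64 ± 0.55. Psmb10, the remaining immunoproteasome subunit, was the one member whose groups overlapped, 309, 399 and 423 against 365, 638 and 485, 0.37 ± 0.18 (adjusted p = 0.519). Psmb8, Psmb9 and Tap1 stand in the interferon list too. The proteasome subunits that all cells carry stood near 0, with 12 of 31 above it and a median of -0.04 (0.33 as deposited, -0.07 relative to all probe sets).

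MHC class II genes showed the same arrays apart, 6 of 6 above 0 with a median of 1.45. The groups were apart in 4, against 8.05% of all genes with Q10 higher. H2-Aa, a class II alpha chain, read 232, 214 and 164 in the controls and 359, 970.1 and 1035 on Q10, 1.82 ± 0.42 (adjusted p = 0.103). Cd74, the invariant chain that guides class II molecules, read 364, 266 and 271 against 515, 1503 and 1678, 1.87 ± 0.44 (adjusted p = 0.109). H2-Eb1 was at 2.10 ± 0.43 (adjusted p = 0.0935). For all 3, array 1 lay above the highest control and arrays 2 and 3 further above it. Ciita, the master regulator of class II genes, was dim and overlapped, 8.2, 7.1 and 22.6 against 20.1, 12.8 and 19.4, 0.58 ± 0.60 (adjusted p = 0.844). The 4 class II genes whose groups were apart were called without Q10 array 1, against 1.89% of all genes called higher. The medians with array 1 alone were 0.72 for class I and 0.79 for class II.

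B cell markers had the highest median of the lists described here. Ms4a1, the B cell surface protein CD20, read 11.3, 9.8 and 10.4 in the controls and 23.7, 305 and 431 on Q10, 3.70 ± 0.91 (adjusted p = 0.13). Ighm, the heavy chain of IgM, read 60, 47.8 and 43.7 against 58.7, 978 and 4305, 3.63 ± 0.96 (adjusted p = 0.161). Cd79b and Cd79a, the signalling chains of the B cell receptor, were at 3.38 ± 0.84 and 2.74 ± 0.82. All 4 were high in Q10 arrays 2 and 3 only, with array 1 inside the range of the controls for Ighm and Cd79a and above it for Ms4a1 and Cd79b. The list median was 3.50 with all arrays, 4.90 without array 1 and 0.34 with array 1 alone. Without array 1 all 4 were called, against 1.89% of all genes called higher. More cells of a type and more RNA per cell cannot be told apart in these bulk tissue samples. The part of B cells or other leukocytes in the interferon, MHC and later results was not tested.

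Markers of some other blood cells were high on the same arrays. Of 7 neutrophil genes listed 4 were tested. S100a8, a calcium-binding protein of neutrophils, read 34.2, 15.1 and 14.2 in the controls and 19.4, 381 and 139 on Q10, 2.33 ± 0.93 (adjusted p = 0.404), and the groups overlapped. The summed neutrophil signal was 51.1 to 97.1 in controls and 75.7, 955 and 356 in Q10 arrays 1 to 3. Red cell genes lay higher too: Slc4a1, the anion exchanger of the red cell membrane, read 77.7, 33.4 and 38.6 against 91.7, 260.1 and 496, 2.27 ± 0.62 (adjusted p = 0.174), and Alas2, the first enzyme of red cell haem synthesis, 924, 505 and 475 against 957, 1262 and 2476, 1.25 ± 0.46 (adjusted p = 0.348). T and NK cell markers overlapped between the groups: Cd8a read 21.3, 29.6 and 25.8 against 17.1, 22.1 and 19.5 and Cd3g 17.2, 8.4 and 16.7 against 10.7, 6.1 and 25.9, only these 2 of 8 were bright enough to test, and the sum of 7 was 63.8 to 67.3 in controls and 56.5 to 99.4 on Q10. No member of these lists was at 0 on any array of 14 months.

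Macrophage genes lay higher by less, 11 of 11 above 0 with a median of 0.51. The groups were apart in 8, against 8.05% of all genes with Q10 higher. Cd53, a tetraspanin of leukocytes, read 72.2, 44.7 and 53.7 in the controls and 83.4, 205 and 253 on Q10, 1.53 ± 0.33 (adjusted p = 0.0939). The complement genes C1qa, C1qb and C1qc, made by resident macrophages, were at 0.51 ± 0.18, 0.72 ± 0.22 and 0.63 ± 0.20. Cd68, a lysosomal protein that marks macrophages, overlapped at 0.24 ± 0.22. Without Q10 array 1, 3 of the 11 were called, against 1.89% of all genes called higher. With array 1 alone the median was 0.28. Chemokines were mixed, 12 of 16 above 0: Ccl8, which draws monocytes, read 82.5, 65.1 and 74.7 against 162, 175 and 704, 1.86 ± 0.51 (adjusted p = 0.176), and the interferon-induced Cxcl9 10.1, 8.8 and 2.4 against 16.8, 50 and 96.4, 2.64 ± 0.77 (adjusted p = 0.21), while Cxcl10 stayed dim and overlapped at 0.85 ± 0.73. Nfkbia, the inhibitor that NF-kappaB induces against itself, was even across the Q10 hearts, 1286, 1338 and 1105 against 1852, 2078 and 1937, 0.66 ± 0.14 (adjusted p = 0.0935).

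Genes of cell division followed arrays 2 and 3. Of 20 tested 18 lay above 0, with a median of 0.72 that was 0.04 with array 1 alone. Without array 1, 3 were called, against 1.89% of all genes called higher. Mki67, a marker of dividing cells, read 27.1, 21.3 and 39 in the controls and 25.4, 99.9 and 143 on Q10, 1.31 ± 0.51 (adjusted p = 0.382). Mcm7, of the helicase that opens replication origins, read 103, 109.7 and 111 against 128, 268 and 233, 0.89 ± 0.23 (adjusted p = 0.152). Both were at the level of the controls or little above it in array 1. Endothelial genes lay higher mainly in array 2: Vwf, the clotting factor stored in endothelium, read 334, 383 and 382 against 420.0, 892 and 583, 0.72 ± 0.19 (adjusted p = 0.16), and Pecam1, its junction protein, 299, 299.5 and 352 against 281, 641 and 433, 0.43 ± 0.19 (adjusted p = 0.448). The list medians of arrays 1 to 3 were 0.05, 0.74 and 0.09.

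**Figure D3:**
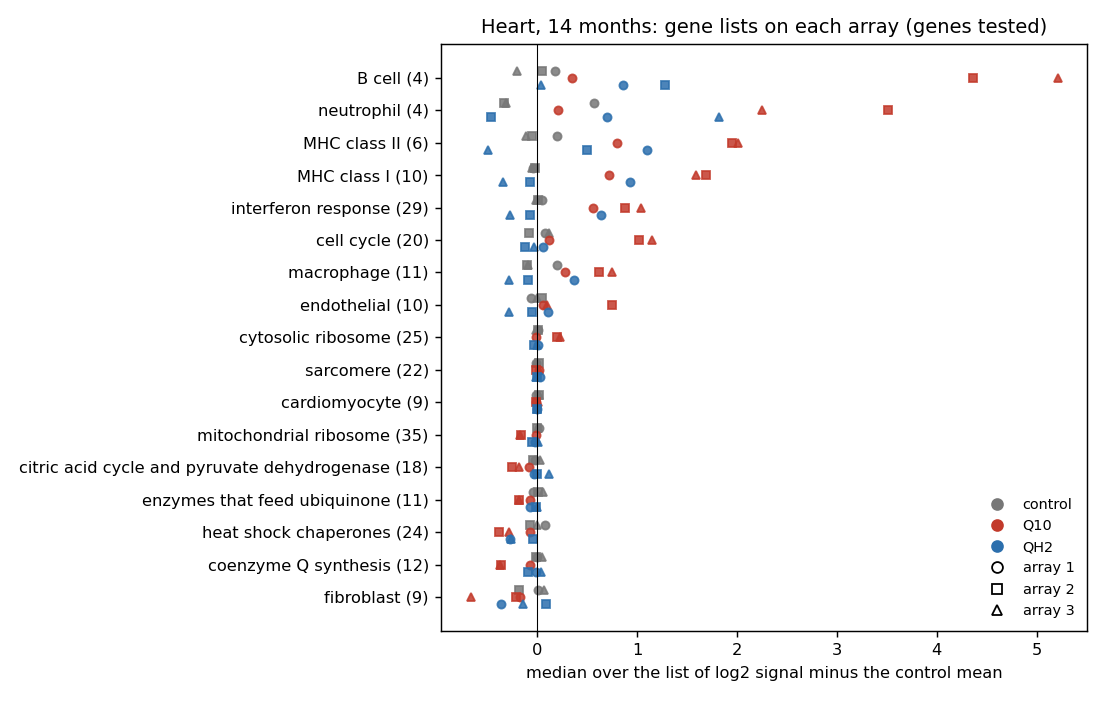
Median over each gene list of log2 signal minus the mean of the 3 controls (horizontal axis) for the 9 heart arrays of 14 months, with the number of genes tested in parentheses. Q10 arrays 2 and 3 (red square and triangle) lie far to the right for B cell genes, at 4.37 and 5.22, and the coenzyme Q synthesis list lies at -0.08, -0.36 and -0.38 on Q10 arrays 1 to 3; in the values as deposited, which carry the shift of all probe sets, the difference of that list is 0.14.

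The 12 genes with the smallest p on the lower side came from several pathways. Dnajb4, a heat shock co-chaperone, read 600.0, 401 and 464 in the controls and 299, 186 and 241 on Q10, -1.01 ± 0.20 (adjusted p = 0.0935), by one of 3 probe sets that ran from -1.01 to -0.11. Pfn2, an actin-binding profilin, read 747, 676 and 779 against 610.3, 386 and 456, -0.62 ± 0.12 (adjusted p = 0.0935). Lum, the collagen-binding proteoglycan lumican, read 1412, 1239 and 1581 against 1214, 669 and 654, -0.79 ± 0.17 (adjusted p = 0.0939). Pfn2 and Lum lay lowest in arrays 2 and 3, and the groups did not overlap in any of the 12 genes. Several encode metabolic enzymes: Bdh1, which oxidises the ketone body 3-hydroxybutyrate, read 1438, 1369 and 1373 against 1167, 875 and 1033, -0.45 ± 0.10 (adjusted p = 0.0966), and Me1, the cytosolic malic enzyme, 503, 457 and 537 against 345, 321 and 365, -0.53 ± 0.12 (adjusted p = 0.0966). Uros, an enzyme of haem synthesis, was at -0.53 ± 0.12, and Nudt7, a peroxisomal hydrolase of coenzyme A, at -0.50 ± 0.10. Me1 and Nudt7 were even across the Q10 hearts, and Bdh1 was lowest in array 2.

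Vdac1, the main channel of the outer mitochondrial membrane, had the smallest standard error of the 12, 4382, 4298 and 4189 against 3290.4, 3252 and 3483, -0.36 ± 0.08 (adjusted p = 0.102) by this probe set, though its 5 probe sets ran from -0.36 to 0.41. The ubiquitin ligase Ubr3 was at -0.45 ± 0.10, the organic cation exporter Slc47a1 at -0.49 ± 0.11, Fam118b at -0.84 ± 0.17 and Tex261 at -1.01 ± 0.23. The 3 probe sets of Tex261 ran from -1.01 to 0.07 and the 2 of Fam118b from -0.84 to -0.005. The 4 probe sets of Ubr3 ran from -0.45 to -0.18, the 2 of Bdh1 from -0.45 to -0.10 and the 4 of Nudt7 from -0.50 to -0.13. Adjusted p over the 12 ran from 0.0935 to 0.102. Without Q10 array 1, 10 of the 12 were called, the exceptions being Tex261 and Vdac1, and with array 1 alone they ran from -1.23 (Tex261) to -0.21 (Lum).

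The genes that make, carry or regulate ubiquinone lay slightly lower in the hearts of mice fed it. By the brightest probe set all 12 tested had a difference below 0, as did 53.2% of all genes. The groups were apart in 6 with Q10 lower, against 9.51% of all genes. The median was -0.25, which is 0.14 in the values as deposited and -0.25 there relative to all probe sets. Coq9, a lipid-binding partner of the hydroxylase Coq7, read 3202, 3016 and 3258 in the controls and 2815, 2398 and 2326 on Q10, -0.33 ± 0.08 (adjusted p = 0.12). Coq10b, which binds ubiquinone for its transport or function in respiration, read 434, 393 and 419 against 299.7, 281 and 289, -0.51 ± 0.17 (adjusted p = 0.289). Coq9 was the one member called without Q10 array 1, at -0.42 (adjusted p = 0.00672), where 0.661% of all genes were called lower. Coq3, a methyltransferase of the pathway, was at -0.37 ± 0.14, Coq4 at -0.32 ± 0.17, Pdss2, which helps build the isoprenoid tail, at -0.27 ± 0.15 and Coq2, which joins tail and ring, at -0.16 ± 0.10. Coq7 read 1342, 1927 and 1699.5 against 1621, 1342 and 1211, -0.25 ± 0.13 (adjusted p = 0.576), and the groups overlapped. Coq5, Coq6 and Coq8b were within 0.10 of 0, and Coq8a, an atypical kinase of the complex, was at -0.16 ± 0.12. Coq10a was at -0.26 ± 0.11, but its 3 probe sets ran from -0.26 to 0.41, and the 2 of Coq10b ran from -0.51 to -0.19. With array 1 alone the list median was -0.08 and 4 of 12 lay above 0.

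**Figure D4:**
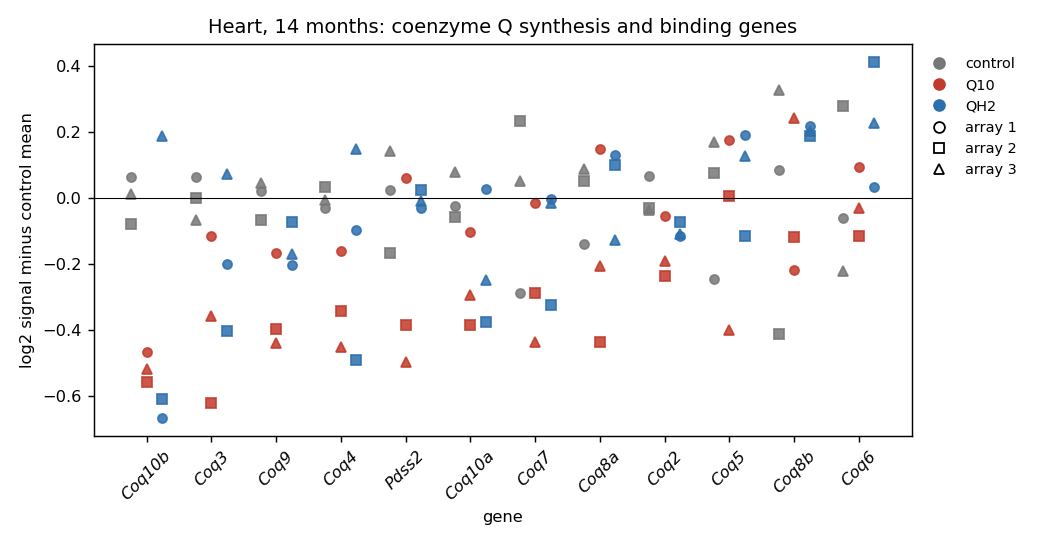
Log2 signal minus the mean of the 3 controls (vertical axis) for 12 coenzyme Q genes on the 9 heart arrays of 14 months, by diet and array number. Coq10b and Coq9 are below all controls on the 3 Q10 arrays, with differences of -0.51 and -0.33, while Coq6 at -0.02 and Coq8b at -0.03 overlap; in the values as deposited the list median is above 0, at 0.14.

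Enzymes that pass electrons to ubiquinone lay lower by a similar amount, 9 of 11 below 0. Their median was -0.20 (0.14 as deposited, -0.26 there relative to all probe sets). The groups were apart in 5 with Q10 lower, against 9.51% of all genes. Etfdh, the dehydrogenase that hands over electrons from fatty acid oxidation, read 3309, 3471 and 3603 in the controls and 3126, 2821 and 3048 on Q10, -0.21 ± 0.07 (adjusted p = 0.3). Etfa, its electron carrier, read 4473, 4856 and 4619.6 against 3987, 3704 and 4205, -0.23 ± 0.07 (adjusted p = 0.225). Sdha, the flavoprotein of complex II, was at -0.20 ± 0.08 and Sqor, which oxidises sulphide, at -0.26 ± 0.11. None was called without array 1, and with array 1 alone the median was -0.08 and 4 of 11 lay above 0.

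The citric acid cycle list stood at -0.18 (0.13 as deposited, -0.27 there relative to all probe sets), with 16 of 18 below 0. The groups were apart in 8 with Q10 lower, against 9.51% of all genes. With array 1 alone the median was -0.09 and 8 of 18 lay above 0. Idh3a, a subunit of isocitrate dehydrogenase, read 4754, 4414 and 4916 in the controls and 3794, 3773 and 3821 on Q10, -0.31 ± 0.08 (adjusted p = 0.183). Mpc1, a subunit of the mitochondrial pyruvate carrier, read 4866, 4613 and 4823 against 3926, 3429 and 4123, -0.32 ± 0.09 (adjusted p = 0.174). Pdha1, the E1 alpha subunit of pyruvate dehydrogenase, was at -0.24 ± 0.06 (adjusted p = 0.166). The respiratory complexes stood closer to 0, with medians of -0.07 for complex I, -0.09 for complex III, 0.01 for complex IV and -0.03 for complex V. Scaling by the median in place of quantiles moved these to -0.21, -0.26, -0.27 and -0.27, and the values as deposited to 0.17, 0.12, 0.11 and 0.11, so their direction and size hung on the scaling. Complex I stood, with array 1 alone, at 0.02, with 21 of 32 above 0. Ppargc1a, the coactivator that drives mitochondrial biogenesis, lay the other way, 461, 582 and 447 in the controls and 960, 1358 and 684 on Q10, 0.96 ± 0.21 (adjusted p = 0.0939).

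Fatty acid oxidation genes lay on both sides of 0. Hadhb, Hadha, Acadm and Echs1, enzymes of the oxidation spiral, were at -0.20 ± 0.07, -0.23 ± 0.10, -0.21 ± 0.09 and -0.35 ± 0.13, and 20 of the 26 tested lay below 0 (median -0.11; 0.15 as deposited, -0.25 relative to all probe sets). Cpt1a, the liver isoform of the carnitine transferase at the entry, read 155, 206 and 175 in the controls and 242, 277 and 261 on Q10, 0.55 ± 0.19 (adjusted p = 0.309). Pdk4, which restrains pyruvate dehydrogenase when fat is burned, was at 0.45 ± 0.33 (adjusted p = 0.726), Ucp3, the muscle uncoupling protein, at 0.58 ± 0.33 (adjusted p = 0.626) and Angptl4, a lipoprotein lipase inhibitor, at 0.78 ± 0.45 (adjusted p = 0.626). Groups were apart with Q10 higher for Cpt1a, Ucp3 and Angptl4 (3 of 26, against 8.05% of all genes). They were apart with Q10 lower for Hadhb, Hadha and Echs1 (3 of 26, against 9.51% of all genes). Both counts are near the share of all genes, and none of the list was called with or without array 1. The median was -0.01 with array 1 alone and 12 of 26 lay above 0.

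Heat shock chaperones lay below 0 in 23 of 24, with a median of -0.24 (0.09 as deposited, -0.31 there relative to all probe sets). The groups were apart in 11 with Q10 lower, against 9.51% of all genes. The brightest Dnajb4 probe set read 2251, 1895 and 1971 in the controls and 1520.2, 1094 and 1311 on Q10, -0.65 ± 0.14 (adjusted p = 0.0939). Hspb6, a small heat shock protein of heart muscle, read 5919, 5284 and 5366 against 4939.9, 4268 and 4242, -0.30 ± 0.11 (adjusted p = 0.345). Hspa1b, the inducible Hsp70, varied most, 2041, 924 and 1212 against 1222, 92.7 and 419, -1.86 ± 1.06 (adjusted p = 0.621), and Hsph1, its exchange factor, was at -0.46 ± 0.26 (adjusted p = 0.605). Q10 array 1 lay within the range of the controls for Hspa1a and Hspa1b and above it for Hsph1, so these overlapped. With array 1 alone the median was -0.07 and 10 of 24 lay above 0. Without array 1, 3 of 24 were called lower, against 0.661% of all genes. The heat shock element, searched on either strand as GAA, TTC and GAA with any 2 bases between them, was in the windows of 4 of 19 matched list genes (21.1%) against 179 of 27025 genes (0.662%). Hspd1 and Hspe1 are among the 4, and their matches lie in the same stretch of chromosome 1 on opposite strands, so shared letters count for both.

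Heart muscle genes lay near 0. The sarcomere list had a median of 0.00 and the cardiomyocyte markers -0.01, which became -0.26 and -0.31 with scaling by the median and 0.12 and 0.07 in the values as deposited, so their direction hung on the scaling. Nppa, the atrial natriuretic peptide that the stressed ventricle re-expresses, read 3799.6, 2772 and 1510.3 in the controls and 3498, 4566 and 4948 on Q10, 0.77 ± 0.36 (adjusted p = 0.496), and Nppb, its B-type relative, 6577, 5472 and 4399 against 4754, 4648 and 5114, -0.16 ± 0.19 (adjusted p = 0.865). The 2 peptides overlapped with the controls. Myh7, the slow fetal myosin, was high in Q10 array 3 alone, 615, 1366 and 525 against 923, 882 and 5704, 1.13 ± 0.51 (adjusted p = 0.479). Acta1 was at -0.03 ± 0.19 (adjusted p = 0.99) and Ankrd1, a stretch-responsive repressor, at -0.46 ± 0.20 (adjusted p = 0.463). Fhl1, a scaffold protein of the sarcomere, had even groups apart, 3315, 3246 and 3272 against 2543, 2454 and 2439, -0.40 ± 0.09 (adjusted p = 0.108), and was called without array 1.

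Of 14 cardiac ion channel genes 11 lay below 0 (median -0.24, or 0.18 as deposited and -0.22 relative to all probe sets). The groups were apart in 5 with Q10 lower, against 9.51% of all genes. The ion channel median with array 1 alone was 0.01 and 8 of 14 lay above 0. Kcnd2, of the transient outward current, read 208, 200.1 and 231 in the controls and 219, 119.7 and 148 on Q10, -0.43 ± 0.17 (adjusted p = 0.38), and was called without array 1. Gja1, the gap junction protein connexin 43, read 4588, 4754 and 4743 against 4856, 3329 and 3842, -0.25 ± 0.12 (adjusted p = 0.507). In both, array 1 stood within or above the controls and arrays 2 and 3 below. Fibroblast genes lay below 0 in 8 of 9 (median -0.28; 0.15 as deposited, -0.25 relative to all probe sets), with Lum described above, Dcn, a related proteoglycan, at -0.17 ± 0.11 (adjusted p = 0.677) and Col3a1, a fibrillar collagen, at -0.38 ± 0.23 (adjusted p = 0.653). The fibroblast median with array 1 alone was -0.18 and 3 of 9 lay above 0.

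Clock genes had a list median of -0.04 (0.39 as deposited, -0.01 there relative to all probe sets). Of 16 tested 11 lay below 0, against 53.2% of all genes, and standard errors were wide for Dbp and Arntl. Dbp, a rhythmic transcription factor, read 864, 915 and 852 in the controls and 1029.9, 668 and 554 on Q10, -0.27 ± 0.64 (adjusted p = 0.951). By the brightest probe set Per1, Per2 and Per3 were within 0.10 of 0, Arntl was at -0.14 ± 0.77 (adjusted p = 0.984) and Nr1d1 at -0.26 ± 0.27 (adjusted p = 0.845). The 3 probe sets of Per2 ran from -0.83 to 0.15, the 5 of Per3 from -0.43 to 0.28 and the 2 of Arntl from -0.56 to -0.14. Of stress and glucocorticoid genes, Cdkn1a, a cell cycle inhibitor induced by p53, read 175, 167 and 125 against 143, 408 and 276, 0.71 ± 0.35 (adjusted p = 0.531), Fkbp5 was at 0.23 ± 0.33 (adjusted p = 0.909) and Sgk1 at 0.53 ± 0.24 (adjusted p = 0.482). Cdkn1a was high in arrays 2 and 3, and the groups overlapped.

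Antioxidant enzymes lay below 0 in 13 of 17 (median -0.08, or 0.29 as deposited and -0.11 relative to all probe sets). The groups were apart in 6 with Q10 lower and in 1 with Q10 higher, against 9.51% and 8.05% of all genes. Prdx3, the peroxiredoxin of mitochondria, read 2287, 2409 and 2282 in the controls and 1842, 1753 and 1837 on Q10, -0.36 ± 0.09 (adjusted p = 0.114). Mgst3, a microsomal glutathione transferase, read 4278, 4538 and 4289 against 4156, 3219.8 and 3618, -0.26 ± 0.09 (adjusted p = 0.288), and was called without array 1. Gpx4, which reduces lipid peroxides, was at -0.23 ± 0.09 (adjusted p = 0.351). Of the targets of the oxidant sensor NRF2, Nqo1, a quinone reductase that can reduce ubiquinone, read 410.3, 471 and 426 against 392, 224 and 340.3, -0.48 ± 0.20 (adjusted p = 0.41). Hmox1, the inducible haem oxygenase, overlapped, 55.4, 55.1 and 42.3 against 41.7, 46.2 and 65.6. Proteins of the mitochondrial ribosome lay below 0 in 32 of 35 (median -0.11, or 0.27 as deposited and -0.13 relative to all probe sets). The groups were apart in 6 with Q10 lower, against 9.51% of all genes. Those of the cytosolic ribosome lay above 0 in 21 of 25 (median 0.13, or 0.42 as deposited and 0.02 relative to all probe sets). The groups were apart in 6 with Q10 higher, against 8.05% of all genes. The medians of both ribosome lists with array 1 alone were -0.01, with 16 of 35 above 0, and -0.01, with 11 of 25 above 0.

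QH2 was given at the same dose and for the same time, and shares the control arrays, so its values are set beside those of Q10. Against control 0 of 27022 probe sets were called (0%; smallest adjusted p 0.215), 1264 had an unadjusted p under 0.05, and groups were apart for 5.42% of genes higher and 5.51% lower. The interferon list stood at 0.09 on QH2 against 0.83 on Q10, with 0 of 29 groups apart. QH2 array 1 lay at 0.64 and arrays 2 and 3 at -0.08 and -0.28. Gbp2 read 565, 181 and 185 and Psmb9 261, 92.6 and 78 on QH2 arrays 1 to 3, and for Gbp2 and Psmb9 array 1 alone lay above the controls. Other immune genes were above all controls on all 3 QH2 arrays: H2-K1 read 270.2, 614 and 357, 1.63 ± 0.28 against control, Ptprc 89.3, 88.1 and 73.7 and Ctsc 348, 349 and 328. B cell markers summed to 100.4 to 301 on QH2. The coenzyme Q list stood at -0.11 and heat shock chaperones at -0.14 with 9 of 24 apart and lower. QH2 arrays 2 and 3 held the atrial markers Myl7 and Myl4 at 8175 and 1658 and at 5755 and 1678, where array 1 read 15.9 and 54.1, and the part of atrial tissue in the QH2 values was not tested. Without QH2 array 1, 125 were called, 57 higher and 68 lower.

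The 2 compounds, which differ only in the oxidation state of the quinone ring, were tested directly as 1 pair. None of 27022 probe sets was called (0%; smallest adjusted p 0.0747), 2976 had an unadjusted p under 0.05 and 127 an adjusted p under 0.10. Pdk4 read 2622, 2963 and 2234 on Q10 and 941, 807 and 447 on QH2, QH2 minus Q10 being -1.89 (95% interval -2.57 to -1.21, adjusted p = 0.0747). Angptl4 read 155, 165 and 86.4 and 26.9, 22.3 and 28.3, -2.30 (95% interval -3.24 to -1.35, adjusted p = 0.0747). Both are induced by fatty acids through PPAR receptors, and in both every QH2 heart lay below every Q10 heart and every control. The Q10 arrays here are the same as in Q10 against control. Genes and lists that stood out there lean the opposite way here even where QH2 equals control. Among such immune genes Cd22 lay at -2.60 (95% interval -3.63 to -1.57, adjusted p = 0.0747). Trim30a lay at -0.94 (95% interval -1.35 to -0.52, adjusted p = 0.0747) and Gbp2 at -1.55 (95% interval -2.27 to -0.84, adjusted p = 0.0832). In the interferon list 0 of 29 genes lay higher on QH2 than on Q10 (median -0.80). Lum lay at 0.75 (95% interval 0.39 to 1.11, adjusted p = 0.0941) and Pfn2 at 0.53 (95% interval 0.28 to 0.78, adjusted p = 0.0941). For other genes the interval held 0: H2-K1 0.00 (95% interval -0.59 to 0.59, adjusted p = 1), Nppb 0.00 (95% interval -0.39 to 0.39, adjusted p = 1), Coq10b 0.15 (95% interval -0.21 to 0.51, adjusted p = 0.844) and Hspa1b -1.67 (95% interval -3.89 to 0.56, adjusted p = 0.627). By the brightest probe set all 12 coenzyme Q genes lay higher on QH2 than on Q10, with a median of 0.18, again on the shared Q10 arrays. The count turned on single arrays, with 718 calls without Q10 array 1 and 1178 without QH2 array 1, and with Q10 arrays 2 and 3 left out it was 1, the Yy1 probe set. With the replicate number as a block Pdk4 was the 1 call.

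At 6 months Q10 against control gave 0 of 27022 calls (0%; smallest adjusted p 0.0719; 1557 at an unadjusted p under 0.05), and groups were apart for 5.02% of genes higher and 4.59% lower. The interferon list had a median of 0.05 with 0 of 29 groups apart, MHC class I 0.29 and coenzyme Q synthesis -0.02. Of the 12 genes higher at 14 months, 7 lay above 0 at 6 months and 5 below, Plac8 being lowest at -0.48 and Cd22 highest at 0.70. Of the 12 lower genes 7 lay below 0, all between -0.15 and 0.15. The 6-month count was 5 without control array 1 (Prr15l, Fmnl1, Scamp5, Narf and an unnamed probe set), 1 without control array 2 (Myo9a), 3 without control array 3 (Gm8273, Rbm33 and H3c4), 7 without Q10 array 2 and 1, unnamed, without Q10 array 3. These genes were named after their values were seen.

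The test of the difference itself, the Q10 effect at 14 months minus that at 6 months, called 0 of 27022 (0%; smallest adjusted p 0.635; 1824 at an unadjusted p under 0.05), so no gene passed the test of a different response at the later time. Plac8 differed by 4.13, Ptprc by 2.40 and Gbp7 by 2.23, each with an adjusted p of 0.635. Without Q10 array 1 of 14 months 85 were called, 75 higher and 10 lower, and without Q10 array 1 of 6 months 1, a probe set of Gsn.

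The heart effect of Q10 at 14 months was last set against the average of its effects in liver, kidney and brain. Of 27022 probe sets 10 were called (0.037%), 8 with a higher effect in heart and 2 with a lower one, and none of the 24 genes with the smallest p was among them. The closest was Fam118b, at -0.96 ± 0.29 (adjusted p = 0.37) by 1 of its 2 probe sets. For Gbp2 the difference was 0.36 ± 0.63 (adjusted p = 0.997), for Ptprc 0.77 ± 0.59 (adjusted p = 0.966). The difference from the other tissues did not pass for any of these genes. The same-numbered Q10 arrays of the other tissues were high too, though no label says that a number marks 1 mouse. Ighm read 240, 2552 and 6106 in liver Q10 arrays 1 to 3 against 79.8 to 127 in liver controls, and 69.5, 147 and 152 in brain against 58.3 to 60.5. In kidney it read 1526, 4569 and 3712 against 864 to 2519. Ighm was highest in array 3 in heart, liver and brain and in array 2 in kidney. Psmb9 was highest in array 2 of each tissue, at 1202 in liver, 1238 in kidney and 107.2 in brain, and in kidney and brain array 1 lay below the controls.

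**Figure D5:**
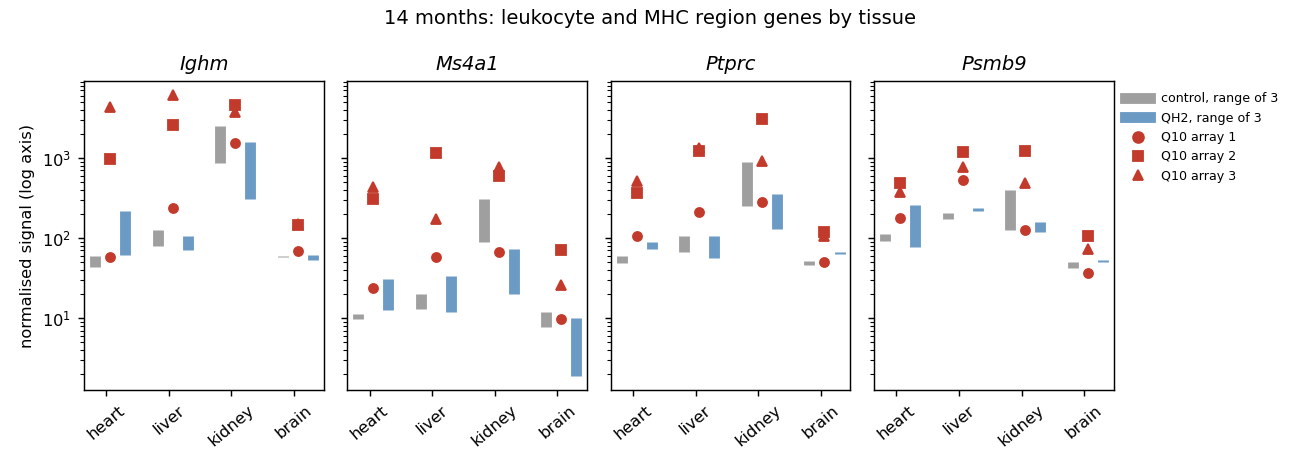
Normalised signal (log axis) of 4 genes at 14 months in heart, liver, kidney and brain; bars are the range of the 3 control and 3 QH2 arrays, red markers the Q10 arrays by number. Q10 arrays 2 and 3 lie above the control range for Ighm, Ms4a1, Ptprc and Psmb9 in all 4 tissues, for Ptprc in kidney at 3101 and 910 against a highest control of 891; tissues were normalised separately, so levels are compared only within a tissue.

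The count for heart against the other tissues moved with single arrays. It was 0 without heart Q10 array 2, 1 without heart Q10 array 3 (Pla2g15, lower), 40 without heart Q10 array 1, 23, 1 and 5 without heart control arrays 1, 2 and 3, and 104 without liver Q10 array 1. It was 6 without brain control array 2, kidney control array 2 or liver Q10 array 3, 5 without brain Q10 array 1 and 3 without kidney control array 3. With heart Q10 arrays 2 and 3 left out 5 were called (Pvalb, Pla2g15, Firre, Yy1 and an unnamed probe set), and none of the 10 was among them. The 10 are given with their values in the closing section.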

How the data were processed

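RNA from heart, the part not given in the labels, was extracted with Qiazol and hybridised as biotin-labelled cRNA to Affymetrix arrays, per the labels' protocols. The authors deposited linear signal intensity values of 45101 probe sets, made with GCOS per the submitters' processing notes (version and settings not given in the sources used here) and not levelled between arrays. Precision is limited by 3 arrays a group.

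The 64 control probe sets were left out. Values were quantile-normalised within each tissue and taken as log2(signal + 1), and the 27022 probe sets above the 40th percentile of mean heart signal were tested. limma 3.58.1 in R 4.3.3 fitted the 6 heart groups (12 residual degrees of freedom) with an intensity trend, and Benjamini-Hochberg adjusted p-values ran over all probe sets tested, with calls under 0.05. The contrast with other tissues used the arrays of 4 tissues and took them as independent, with no term for the mouse. Scripts were tested on simulated data. Symbols came from the platform annotation and were updated by Entrez identifier, through the RefSeq gene table, for 34754 of 34958 probe sets with 1 symbol; 932 had several and 9160 none, which were not named. A list member stands for its brightest probe set.

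Named were the 12 genes a side with the smallest p and a mean signal of at least 50 in the brighter group (no gene was called), up to 4 members of each list by smallest p, the coenzyme Q list and a fixed set of cardiac, metabolic, clock and stress genes. Other list members were named for their role after their values were seen. Members and lists were chosen with earlier results of these data known. Same-numbered control and Q10 arrays did not deviate together (r = -0.02, 0.01 and 0.01), so the numbers do not pair them. Alternatives were the scaling, filter, offset, trend, array weights, groups fitted, the Actb ratio as covariate, a replicate block and each array left out.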

Additional observations from a re-analysis of the deposited data

Results flagged for a closer look

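For 10 probe sets the effect of Q10 in heart at 14 months differed from its average in liver, kidney and brain by limma's test of that difference (adjusted p = 0.0136 to 0.0352, 3 arrays a group). That test took arrays of different tissues as independent, though the labels do not say whether they came from the same mice. Mon2, a protein of membrane traffic, read 138, 164 and 153 in heart controls and 198, 261 and 227 on Q10, and its effect was higher in heart by 0.72 ± 0.13. Bid, which links death receptors to mitochondria, differed by 1.36 ± 0.27, Ptprk, a receptor phosphatase, by 0.81 ± 0.16, Slc9a3r1, a scaffold below the plasma membrane, by 0.89 ± 0.17, Edem1, which clears misfolded proteins from the endoplasmic reticulum, by 1.42 ± 0.29 and Bcar3 by 1.15 ± 0.24. Slc40a1, the iron exporter ferroportin, read 163, 149.9 and 139 in heart controls and 126, 58.2 and 56.1 on Q10, and its difference was -1.09 ± 0.23. The others were dim: Shmt1 (2.69 ± 0.49) read at most 21.5, Hsd17b7 (1.91 ± 0.40) at most 17.5 and Arv1 (-2.54 ± 0.52) at most 23.7 on these 6 arrays. A difference can lie in the other tissues as well as in heart. The Q10 effect on Ptprk was 0.39 ± 0.15 in heart, -0.60 ± 0.16 in liver and -0.51 ± 0.13 in kidney. For Hsd17b7 it was 1.24 ± 0.53 in heart and -1.28 ± 0.28 in liver. For Bcar3 it was 1.16 ± 0.29 in heart and between -0.11 and 0.19 in the other tissues. None of the 10 was called for Q10 against control in heart.

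With each of the 24 arrays left out in turn, Mon2 was called in 22 fits, Ptprk in 21, Shmt1 and Bid in 20, Slc9a3r1 in 19, Edem1 in 16, Hsd17b7 in 12, Slc40a1 in 8 and Bcar3 in 5, and Arv1 in 13 of the 21 fits that tested it. None of the 10 was called with heart Q10 arrays 2 and 3 left out, where Mon2 was at 0.52 (adjusted p = 0.536). Each kept its direction in all of these fits.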

How the results depend on the processing

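For Q10 against control at 14 months the count of 0 became 458 in the values as deposited, 580 with array weights, 10 with only the groups compared, 7 without the filter, 7 with the Actb ratio as covariate (6 higher, 1 lower) and 1 with an offset of 16. It ran from 0 to 540 with each array left out. The 7 without the filter were probe sets of Ctsc, Ptprc, Gbp7, H2-K1, AW112010, Gbp2 and 1 unnamed. At 6 months it became 7 without the intensity trend and 1 with only the groups compared (Synpo2l), and 0 to 7 with each array left out. For the 14-month minus the 6-month effect leaving out each array gave 0 to 85. For QH2 against control it became 4 in the values as deposited (Plagl1, H2-D1, Oxct1 and Myl7) and 1 with only the groups compared (Gsn), and 0 to 125 with each array left out. For QH2 against Q10 it became 126 in the values as deposited (5 higher, 121 lower on QH2), 1 with heart Q10 arrays 2 and 3 left out, an alternative chosen after seeing the data, and 0 to 1178 with each array left out. For heart against the other tissues the count of 10 became 1 in the values as deposited, 6 with a filter at the 60th percentile, 4 with an offset of 16, 3 without the trend, 1 with only the groups compared and 5 with arrays 2 and 3 left out, and ran from 0 to 104 with each array left out. With the replicate number as a block the count was 1 for QH2 against Q10, 5 for heart against the other tissues (Shmt1, Ptprk, Mon2, Slc9a3r1 and an unnamed probe set) and 0 for the other four. Beyond these, the cause was not tested. Genes with few calls were named after their values were seen. As the groups of the 24 genes with the smallest p did not overlap, leaving out 1 array could hardly turn their direction. The 24 kept it in every alternative run. List medians did not all do so: as given in the report, that of complex IV turned from 0.01 to -0.27 with scaling by the median, and those of the lists that lay lower turned positive in the values as deposited, the coenzyme Q list from -0.25 to 0.14, where all probe sets shifted by 0.40. The 95% interval of a typical probe set reached 0.54 to each side on the log2 scale, and was narrower for some bright genes.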

Other observations

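Immediate early genes, which cells switch on within minutes of a signal, lay above 0 for 14 of 20 listed genes, against 46.8% of all genes. The groups were apart in 6 with Q10 higher, against 8.05% of all genes. The list median was 0.13 (0.52 as deposited, 0.12 there relative to all probe sets). With Q10 array 1 alone it was 0.05, and 12 of 20 lay above 0. Egr1, a zinc finger factor of this class, read 245, 268 and 160.3 in the controls and 457, 936 and 501 on Q10, 1.45 ± 0.45 (adjusted p = 0.252). Zfp36, which destabilises cytokine messages, read 148, 129.6 and 112 against 217, 205 and 194, 0.66 ± 0.25 (adjusted p = 0.355). Each Q10 heart lay above each control for both, and no member was called without Q10 array 1.

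Among all genes the text names or lists, 5 had every Q10 array on one side of the controls at 14 months and on the other at 6 months: Nfkbia, Sgk1, Timp3, Psmb7 and Ddx17. Over all genes, groups were apart for 8.05% higher and 9.51% lower at 14 months, and for 5.02% and 4.59% at 6 months. The share of all genes apart in opposite directions was not counted, so the 5 are given as values only. Timp3, an inhibitor of matrix proteases, differed by 0.56 ± 0.17 at 14 months and -0.43 ± 0.17 at 6 months. Nfkbia differed by 0.66 ± 0.14 and -0.19 ± 0.14. The difference between the times did not pass in limma's test for any of the 5 (adjusted p = 0.635 to 0.686).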
